A study of Mus musculus with 6 samples.

Results

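The 10 genes described here are the VEGF ligands Vegfa, Vegfb, Vegfc and Pgf, the angiopoietins Angpt1, Angpt2 and Angpt4, and the receptors Flt1, Kdr and Tie1. They were chosen by name as genes of VEGF and angiopoietin signalling, out of 49548 genes measured, and all 10 passed the filter on low values with the 26402 genes tested. Expression was measured by 3′ mRNA sequencing in cancer-associated fibroblasts (CAFs) sorted from colonic adenomas of Col6a1-Cre, Rosa26-mTmG mice on the C57/BL6 background, young adults of both sexes. All mice had received azoxymethane (AOM), a carcinogen, and cycles of dextran sodium sulfate (DSS) in the drinking water, which damages the colonic epithelium, and both groups of cells came from these tumors. In the mTmG reporter every cell carries membrane Tomato until Cre recombination replaces it with GFP, so that GFP records past or present activity of the Col6a1-Cre transgene. Col6a1+ CAFs (GFP+, n = 3 libraries) and Col6a1- CAFs (Tomato+, n = 3 libraries) were collected after exclusion of cells stained for CD45, EpCAM, CD31 or Ter119, and the study describes each sample as a pool of tumors of several mice. The Cre strain is known to reach both fibroblasts and perivascular cells, the gate selected no mesenchymal marker, and no cells of healthy colon were used here.

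VEGF-A is the main inducer of vessel growth and acts on endothelial cells through the receptor VEGFR2, the product of Kdr. VEGFR1, the product of Flt1, binds VEGF-A tightly, signals weakly and also exists as a secreted form, and it is the receptor of VEGF-B and placental growth factor, the product of Pgf. VEGF-C, made by mesenchymal cells, drives the growth of lymphatic vessels through VEGFR3, the product of Flt4. The angiopoietins bind the receptor TIE2, the product of Tek, with which TIE1 forms a complex. ANGPT1, made by mural cells and fibroblasts, stabilizes vessels, ANGPT2 antagonizes or activates TIE2 depending on the setting, and ANGPT4 is a less studied TIE2 ligand.

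Tie1 was the 1 gene of the 10 with a called difference, and it was higher in Col6a1+ CAFs. Angpt4, Flt1, Angpt2 and Pgf were also higher in each Col6a1+ library than in any Col6a1- library, by 2.34-fold to 4.48-fold in the means, but did not pass the adjustment over all genes. The libraries of both groups overlapped for Vegfa, Vegfb, Vegfc, Angpt1 and Kdr. No member was called lower in Col6a1+ CAFs. The call required limma, after Benjamini-Hochberg adjustment over the 26402 genes, to give a p under 0.05, which 2.66% of all genes met in the direction of Col6a1+ CAFs and 1.96% in the opposite direction. That fit did not use the replicate number, and with the number as a block over the same genes no gene was called. By a looser criterion, an unadjusted p under 0.05 with a log2 fold change over 1, 5 of the 10 members were higher, beside 6.09% of all genes, and the same 5 had no overlap between the groups, beside 7.91% of all genes. The median log2 fold change of the members was 1.16, beside -0.27 over all genes tested, and it was positive in 8 of 10. Summed over the 10 genes, normalized counts were 1881, 1266 and 1421 in the Col6a1+ libraries and 794, 638 and 954 in the Col6a1- libraries.

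Normalized counts, the unit of all levels below, are read counts per gene as normalized by the authors, and were whole numbers. Their sums over all genes were alike, from 3172312 to 3425249 in Col6a1+ and from 3039152 to 3282417 in Col6a1- libraries. These are sums after normalization and do not give the sequencing depth of the libraries, which was not known here. Col6a1+ replicate 1 stood apart with 14530 genes at 1 or more normalized counts, against 18770 to 20511 in the other 5 libraries, so the values of several genes are also given without it. Markers of excluded cells were not absent. The 12 epithelial markers summed to 5858 to 6758 normalized counts in Col6a1+ and 21063 to 35594 in Col6a1- libraries, with 9 of 12 called lower in Col6a1+ CAFs, and none of the members' values was corrected for this. In bulk libraries, fewer cells of a type cannot be told apart from less RNA per cell.

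The promoters of the called receptor Tie1, of the receptors Flt1 and Kdr, and of Vegfa are shown because the fold changes of the receptors lay on both sides of 0, while Vegfa is the best known hypoxia-induced gene of the family. Flt1 and Kdr were added after their values were seen. Each sequence runs 5′ to 3′ on the strand of the gene from 250 bases before the start to 50 bases after it (RefSeq, GRCm38.p6). Capitals mark the core of the hypoxia response element (ACGTG or GCGTG) and the RBPJ motif TGGGAA of Notch signalling, on either strand. The promoters lie at chr4:118489800-118490099 (Tie1), chr5:147725962-147726261 (Flt1), chr5:75978406-75978705 (Kdr) and chr17:46032328-46032627 (Vegfa, the first of its starts), all on the minus strand.
Tie1: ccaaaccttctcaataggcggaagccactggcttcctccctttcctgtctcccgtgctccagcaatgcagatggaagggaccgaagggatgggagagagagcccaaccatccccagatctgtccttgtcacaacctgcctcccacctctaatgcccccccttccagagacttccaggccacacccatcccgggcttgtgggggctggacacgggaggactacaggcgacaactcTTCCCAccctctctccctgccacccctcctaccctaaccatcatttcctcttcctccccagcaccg
Flt1: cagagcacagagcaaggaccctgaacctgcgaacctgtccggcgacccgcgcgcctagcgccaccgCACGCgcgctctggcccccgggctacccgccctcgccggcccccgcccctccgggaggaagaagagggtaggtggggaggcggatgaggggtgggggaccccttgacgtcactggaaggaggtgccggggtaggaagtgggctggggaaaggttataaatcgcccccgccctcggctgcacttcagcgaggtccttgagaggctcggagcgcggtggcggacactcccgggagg
Kdr: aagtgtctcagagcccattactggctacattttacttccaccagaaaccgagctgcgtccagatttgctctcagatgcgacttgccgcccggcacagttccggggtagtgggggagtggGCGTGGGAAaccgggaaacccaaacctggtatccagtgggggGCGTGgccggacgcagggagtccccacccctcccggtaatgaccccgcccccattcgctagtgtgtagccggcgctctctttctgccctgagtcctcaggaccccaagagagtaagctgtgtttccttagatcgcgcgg
Vegfa: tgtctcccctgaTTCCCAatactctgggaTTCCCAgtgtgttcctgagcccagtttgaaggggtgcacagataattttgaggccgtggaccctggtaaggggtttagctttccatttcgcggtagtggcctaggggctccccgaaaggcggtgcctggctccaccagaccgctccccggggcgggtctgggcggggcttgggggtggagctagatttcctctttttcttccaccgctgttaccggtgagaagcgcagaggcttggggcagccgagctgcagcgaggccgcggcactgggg
The Tie1 window held no hypoxia core and 1 RBPJ motif, on the reverse strand between positions -16 and -11 from the start. The Flt1 window held 1 hypoxia core and no RBPJ motif, whereas that of Kdr held 2 hypoxia cores and 1 RBPJ motif, which overlaps the first core by 2 letters. At this start of Vegfa there were 2 RBPJ motifs and no hypoxia core. The window of its other start in the table, chr17:46025114-46025413 on the minus strand, lies wholly inside the gene and not upstream of it. That window held 2 hypoxia cores, from -218 to -214 and, on the reverse strand, from -211 to -207, and 2 RBPJ motifs. Of the 32851 promoters of this length in the RefSeq table, 43.8% held the hypoxia core and 25.6% the RBPJ motif, so that both are common and a match is a description of the letters only. Of the 10 members, 8 had a promoter in the table.

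Among the receptors, Tie1 and Flt1 were higher in each Col6a1+ library, Tie1 with a call and Flt1 without, whereas the libraries of Kdr overlapped. Tie1 (ENSMUSG00000033191, chr4:118471191-118490061, minus strand) encodes the orphan receptor of the angiopoietin system. It had 220, 56 and 152 normalized counts in Col6a1+ replicates 1, 2 and 3, and 1, 7 and 21 in the Col6a1- replicates. The lowest Col6a1+ library was above the highest Col6a1- library, and the Col6a1- values were at the low end of the measured range. The means were 143 ± 82.4 (SD, n = 3) and 9.67 ± 10.3 (SD, n = 3), a ratio of 14.8, and the log2 fold change was 4.14 (SE 0.90, 95% interval 2.16 to 6.12) with an adjusted p of 0.0270 in limma. Replicate numbers were read as pairs, although the labels do not state a pairing. With the number as a block the adjusted p of Tie1 was 0.144 in limma over all genes and 0.0194 when genes averaging under 10 normalized counts were left out. The call was lost whichever library was left out, with adjusted p from 0.0741 to 0.162 and log2 fold changes from 3.23 to 4.96, and without Col6a1+ replicate 1 it was 3.73 with an adjusted p of 0.126. Over all genes, those called higher fell from 703 to between 11 and 453 when a library was left out.

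Flt1 (ENSMUSG00000029648, chr5:147561604-147726011, minus strand) had 280, 276 and 466 normalized counts in the Col6a1+ libraries and 24, 91 and 159 in the Col6a1- libraries. Its groups did not overlap, and its Col6a1- libraries were spread more widely on the log2 scale than its Col6a1+ libraries. With means of 341 ± 109 (SD, n = 3) and 91.3 ± 67.5 (SD, n = 3), a ratio of 3.73, the log2 fold change was 2.21 (SE 0.60, 95% interval 0.88 to 3.54) and the adjusted p in limma was 0.0687. It passed 0.05 in 4 of 14 alternative fits. Among these, the adjusted p was 0.0159 with the replicate block and without the genes averaging under 10 normalized counts, a fit that called 7.26% of 13515 genes higher. In that fit 3 of the 9 members tested (Tie1, Angpt4 and Flt1) were called higher, and with the block over all genes none was. The 3′ reads were summed per gene, so the secreted and the membrane form of VEGFR1 were not separated, although the 2 coding transcripts of Flt1 in the annotation have 2 distinct 3′ ends.

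Kdr (ENSMUSG00000062960, chr5:75932827-75978458, minus strand) had 112, 16 and 27 normalized counts in the Col6a1+ libraries and 52, 95 and 172 in the Col6a1- libraries. The groups overlapped, since Col6a1+ replicate 1 was above 2 of the 3 Col6a1- libraries. The log2 fold change was -1.34 (SE 0.72, 95% interval -2.93 to 0.24) with an adjusted p of 0.408 in limma, and without Col6a1+ replicate 1 it was -2.14 with an adjusted p of 0.104. Tie1 and Flt1 thus lay on the other side of 0 from Kdr, and each is also given as a ratio to Kdr within each library. The difference of such a log2 ratio between the groups is that of the 2 log2 fold changes, so it is no further evidence. The log2 ratio of Tie1 to Kdr was 1.72 ± 0.74 in Col6a1+ and -3.76 ± 0.89 in Col6a1- libraries (SD, n = 3 each), and these did not overlap (difference 5.48, two-sided exact permutation p = 0.1, adjusted over 7 ratios 0.233). That of Flt1 to Kdr was 3.13 ± 1.58 and -0.42 ± 0.58 (SD, n = 3 each), also without overlap (difference 3.55, exact permutation p = 0.1, adjusted 0.233). With 3 against 3 libraries 0.1 is the smallest p this test can give.

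**Figure D1:**
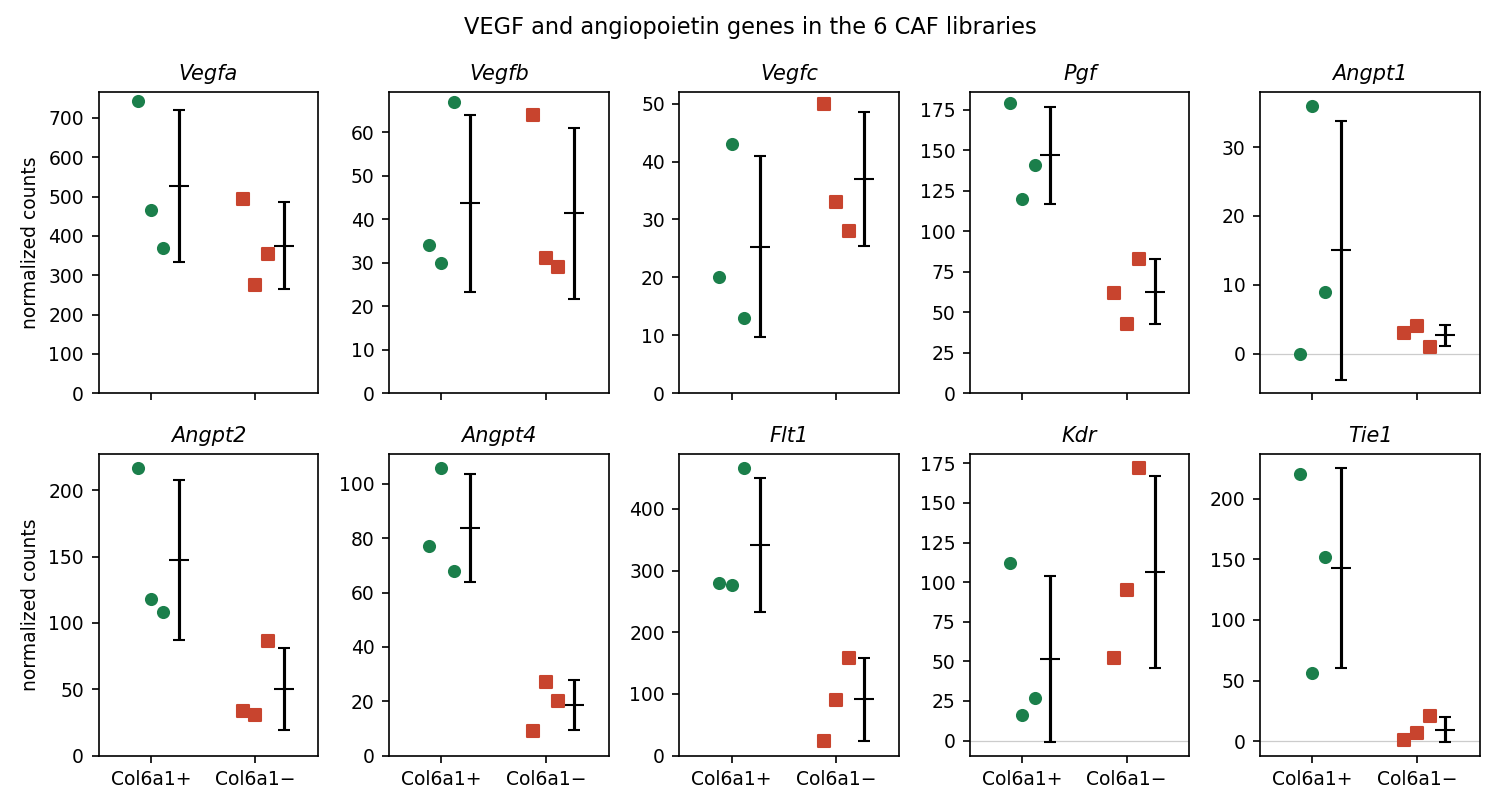
Normalized counts (vertical axis, linear, own scale in each panel) of the 10 genes in the 3 Col6a1+ and 3 Col6a1- CAF libraries; points are libraries and bars are means with SD. Tie1, Flt1, Angpt4, Angpt2 and Pgf have all Col6a1+ points above all Col6a1- points, with 56 against 21 as the nearest pair for Tie1, while the other 5 genes overlap.

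The angiopoietins Angpt4 and Angpt2 were higher in each Col6a1+ library, and neither passed the adjustment. Angpt4 (ENSMUSG00000027460, chr2:151911210-151945337, plus strand) had 77, 106 and 68 normalized counts in the Col6a1+ libraries and 9, 27 and 20 in the Col6a1- libraries. There was a wide gap between the lowest Col6a1+ and the highest Col6a1- library. The means were 83.7 ± 19.9 and 18.7 ± 9.07 (SD, n = 3 each), a ratio of 4.48, and the log2 fold change of 2.20 (SE 0.56, 95% interval 0.96 to 3.45) had an adjusted p of 0.0541 in limma. Without the genes averaging under 10 the adjusted p was 0.0367, and in that set with the replicate block 0.0323, against 0.117 with the block over all genes.

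Angpt2 (ENSMUSG00000031465, chr8:18690263-18741562, minus strand) is known as the angiopoietin of activated endothelium. It had 217, 118 and 108 normalized counts in the Col6a1+ libraries and 34, 31 and 86 in the Col6a1- libraries. The groups were separate, but Col6a1- replicate 3 came close to the lower Col6a1+ libraries. The means of 148 ± 60.3 and 50.3 ± 30.9 (SD, n = 3 each) gave a ratio of 2.93, and the log2 fold change was 1.62 (SE 0.50, 95% interval 0.50 to 2.74) with an adjusted p of 0.110 in limma, under no alternative below 0.05. The whole gene lies on the opposite strand within Mcph1, a gene of chromosome condensation, with which it shares no exon bases. Mcph1 had 3, 22 and 25 normalized counts in Col6a1+ and 42, 22 and 28 in Col6a1- libraries. The part of Mcph1 reads in the values of Angpt2 was not tested. Whether the counting used the strand is not given in the sources used here.

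Angpt1 (ENSMUSG00000022309, chr15:42424727-42676977, minus strand) had 0, 36 and 9 normalized counts in the Col6a1+ libraries and 3, 4 and 1 in the Col6a1- libraries. It was above 4 normalized counts in 2 libraries, both Col6a1+, while Col6a1+ replicate 1 was the only library listed at 0. The log2 fold change of 1.07 (SE 1.32, 95% interval -1.86 to 4.0, adjusted p 0.649 in limma) left both directions possible, and it became -0.11 without Col6a1+ replicate 2. An antisense gene, Gm17473, overlaps exons of Angpt1 and had 2 normalized counts in Col6a1+ replicate 2 and 0 elsewhere. At such levels neither Angpt1 nor the ratios built on it could be resolved. The log2 ratio of Angpt2 to Angpt1 was 4.30 ± 3.13 in Col6a1+ and 3.75 ± 1.48 in Col6a1- libraries (SD, n = 3 each, exact permutation p = 0.8), and that of Angpt4 to Angpt1 differed by 1.13 (exact permutation p = 0.6).

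Of the VEGF ligands, Pgf was higher in each Col6a1+ library and Vegfa, Vegfb and Vegfc overlapped between the subsets. Pgf (ENSMUSG00000004791, chr12:85166639-85177296, minus strand) had 179, 120 and 141 normalized counts in the Col6a1+ libraries and 62, 43 and 83 in the Col6a1- libraries. Each Col6a1+ value exceeded each Col6a1- value. With means of 147 ± 29.9 and 62.7 ± 20.01 (SD, n = 3 each) the ratio was 2.34, and the log2 fold change of 1.24 (SE 0.40, 95% interval 0.35 to 2.13) had an adjusted p of 0.126 in limma and did not pass in any of 14 alternative fits, of which the lowest gave 0.0623.

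Vegfa (ENSMUSG00000023951, chr17:46016993-46032369, minus strand) had 742, 465 and 370 normalized counts in the Col6a1+ libraries and 495, 276 and 355 in the Col6a1- libraries. Vegfa was well detected in every library of both subsets, and only Col6a1+ replicate 1 lay above all Col6a1- libraries. The means were 526 ± 193 and 375 ± 111 (SD, n = 3 each), with a log2 fold change of 0.46 (SE 0.35, 95% interval -0.32 to 1.24) and an adjusted p of 0.595 in limma. A change of up to 1.24 on the log2 scale is therefore within the interval, and the fitted value was 0.19 without Col6a1+ replicate 1. The annotation has 8 coding transcripts of Vegfa with 4 distinct 3′ ends, and the sum per gene did not separate its isoforms.

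Vegfb (ENSMUSG00000024962, chr19:6982473-6987651, minus strand) had 34, 30 and 67 normalized counts in the Col6a1+ libraries and 64, 31 and 29 in the Col6a1- libraries. In each group 1 library was about as high as the top of the other, and the other 4 lay close together. Its log2 fold change was 0.08 (SE 0.56, 95% interval -1.16 to 1.33, adjusted p 0.954 in limma), and the sign turned when 1 library was left out. Vegfc (ENSMUSG00000031520, chr8:54077606-54187096, plus strand) had 20, 43 and 13 normalized counts in the Col6a1+ libraries and 50, 33 and 28 in the Col6a1- libraries. Its highest Col6a1+ library was within the range of the Col6a1- libraries, and the log2 fold change was -0.65 (SE 0.63, 95% interval -2.06 to 0.75, adjusted p 0.642 in limma).

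Set against Vegfa in the same library, the ratio of Pgf was higher in each Col6a1+ library than in any Col6a1- library. The log2 ratio of Pgf to Vegfa was -1.79 ± 0.36 in Col6a1+ and -2.57 ± 0.45 in Col6a1- libraries (SD, n = 3 each), without overlap (difference 0.78, exact permutation p = 0.1, adjusted 0.233). The ratio of Vegfc to Vegfa was -4.43 ± 0.91 and -3.31 ± 0.30 (SD, n = 3 each, difference -1.12, exact permutation p = 0.2, adjusted 0.35). For Vegfb to Vegfa the difference was -0.38 (exact permutation p = 0.6). None of the 7 ratios passed 0.05, which this design does not allow. Each difference between the groups restates the log2 fold changes of the genes in the ratio.

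**Figure D2:**
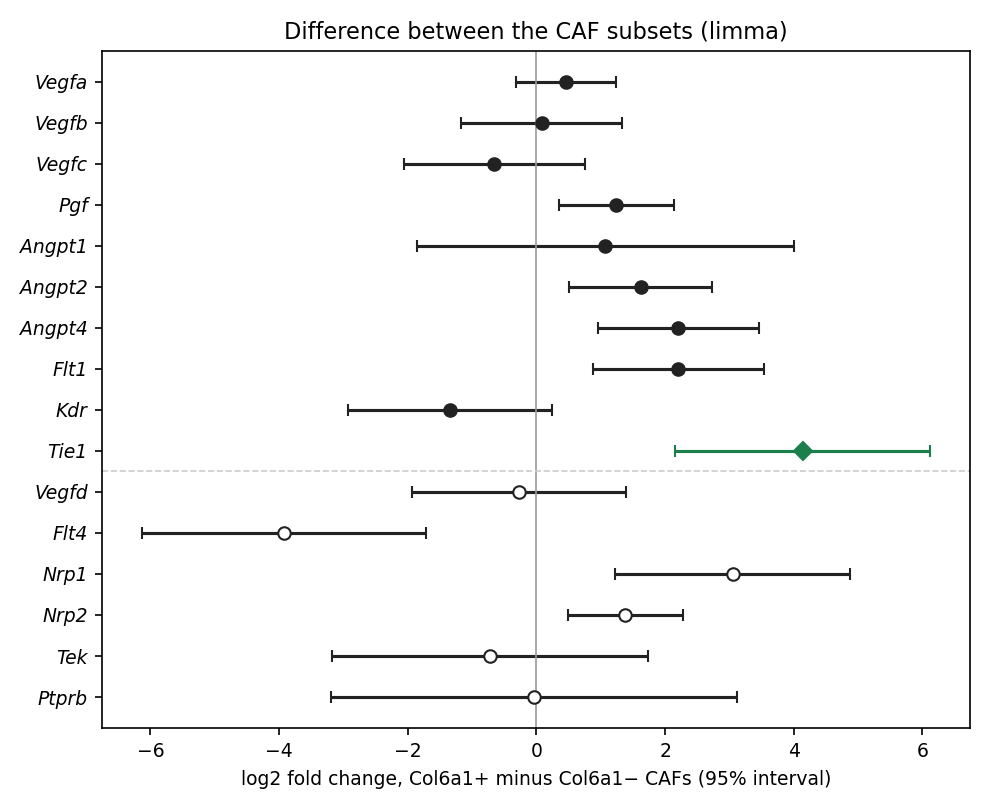
Log2 fold change between Col6a1+ and Col6a1- CAFs (horizontal axis, positive where higher in Col6a1+) with its unadjusted 95% interval from limma; filled points are the 10 members, open points are other ligands and receptors of the pathway, and the green diamond is the member called at an adjusted p under 0.05. The interval of Tie1 runs from 2.16 to 6.12, while those of Vegfa, Vegfb, Vegfc, Angpt1 and Kdr include 0.

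The other genes of the pathway, 18 that were tested, had a median log2 fold change of -0.54, beside -0.27 over all genes tested, with 6 above 0 and 12 below. None was called higher and 1 was called lower in Col6a1+ CAFs. That gene was Shb, which encodes an adaptor protein downstream of VEGFR2. It had 22, 50 and 37 normalized counts in the Col6a1+ libraries and 130, 164 and 160 in the Col6a1- libraries, clearly apart. Its log2 fold change was -2.10 (SE 0.44, adjusted p 0.0233 in limma), and with the replicate block over all genes the adjusted p was 0.0799. Leaving out 1 library at a time gave an adjusted p of 0.0364 to 0.154.

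Semaphorin and VEGF co-receptors, the neuropilins, were higher in each Col6a1+ library without passing the adjustment. Nrp1 had 83, 426 and 355 normalized counts in the Col6a1+ libraries and 7, 69 and 39 in the Col6a1- libraries, with the lowest Col6a1+ library just above the highest Col6a1- library (log2 fold change 3.05, SE 0.83, adjusted p 0.0674 in limma). Nrp2 had 1127, 421 and 438 against 276, 187 and 226, again without overlap (log2 fold change 1.38, SE 0.40, adjusted p 0.0890 in limma), and its log2 fold change was 0.92 without Col6a1+ replicate 1. With the replicate block over all genes the adjusted p in limma was 0.0612 for Nrp1 and 0.120 for Nrp2, and without the genes averaging under 10 it was 0.00311 and 0.0196.

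Receptors of lymphatic and angiopoietin signalling did not share the position of Tie1. Flt4 was listed at 0 in all Col6a1+ libraries and had 24, 27 and 4 normalized counts in the Col6a1- libraries (adjusted p 0.0531 in limma, fitted log2 fold change -3.92, which depends on the pseudocount). Tek had 0, 8 and 7 normalized counts in Col6a1+ and 5, 8 and 5 in Col6a1- libraries, low in both and overlapping (log2 fold change -0.72, SE 1.11, adjusted p 0.729 in limma). Ptprb, the endothelial phosphatase that dampens TIE2, had 0, 16 and 29 against 1, 15 and 16 (log2 fold change -0.03, SE 1.42, adjusted p 1.00 in limma). Thus TIE1's partner was measured at no more than 8 normalized counts in any library. Vegfd, the second lymphatic ligand, had 9, 29 and 13 against 20, 13 and 24 with an adjusted p of 0.862 in limma.

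Among the angiopoietin-like genes, whose products do not bind TIE2, 5 of 7 were tested and 1 was called. Angptl2, a secreted factor of inflamed stroma, had 880, 465 and 343 normalized counts in the Col6a1+ libraries and 188, 172 and 87 in the Col6a1- libraries. The groups were separate, and the log2 fold change was 1.87 (SE 0.43) with an adjusted p of 0.0347 in limma, 0.0702 with the replicate block and 0.0777 to 0.206 with 1 library left out.

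Vegfa is induced by hypoxia through HIF, so 15 other hypoxia-induced genes were listed beside it, of which 14 were tested. Their median log2 fold change was -0.46, beside -0.27 over all genes tested. Of the 14, 3 were above 0 and 11 below, with 1 called higher and none called lower in Col6a1+ CAFs. Summed, they were at 3987 to 4642 normalized counts in Col6a1+ and 5033 to 6899 in Col6a1- libraries. The called gene was P4ha1, a subunit of the collagen prolyl hydroxylase, with 146, 192 and 152 normalized counts against 23, 55 and 47, far apart (log2 fold change 2.02, SE 0.44, adjusted p 0.0283 in limma, 0.0905 with the replicate block, 0.0630 to 0.136 with 1 library left out).

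Because Tie1, Flt1 and Kdr are known foremost as endothelial genes, markers of endothelial cells were set beside them. Of 18 endothelial markers tested, Esam and Eng were called higher and Robo4 was called lower in Col6a1+ CAFs, and the median log2 fold change was -1.84. Esam, an adhesion molecule, had 943, 971 and 1125 normalized counts in Col6a1+ and 54, 93 and 38 in Col6a1- libraries (log2 fold change 4.11, SE 0.37, adjusted p 5.87e-04 in limma, 0.0612 with the replicate block). Eng, a TGF-beta co-receptor, had 331, 266 and 156 against 32, 92 and 45 (log2 fold change 2.21, SE 0.48, adjusted p 0.0265 in limma, 0.118 with the block). Robo4, a guidance receptor of vessels, had 0, 2 and 4 against 81, 49 and 23 (log2 fold change -4.23, SE 0.97, adjusted p 0.0345 in limma, 0.146 with the block). With 1 library left out the adjusted p was 0.0150 to 0.0547 for Esam, which missed 0.05 only without Col6a1- replicate 1, and 0.0660 to 0.180 for Eng and 0.0514 to 0.170 for Robo4.

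Among the markers without a call, Cdh5 was lower in each Col6a1+ library, and Pecam1 overlapped. Pecam1, the gene of CD31 by which endothelial cells were excluded, had 0, 21 and 27 normalized counts in Col6a1+ and 13, 64 and 44 in Col6a1- libraries (log2 fold change -2.02, SE 1.25, adjusted p 0.484 in limma), and without Col6a1+ replicate 1 its log2 fold change was -0.47. Cdh5, the cadherin of endothelial junctions, had 10, 4 and 9 against 39, 24 and 24 (log2 fold change -1.84, SE 0.76, adjusted p 0.252 in limma). In Col6a1+ replicate 1, 10 of the 18 markers were listed at 0. Over all 26402 genes tested, only 14530 were at 1 or more normalized counts in that library, against 18770 to 20511 elsewhere. In Col6a1+ replicate 2 there were 2 markers at 0, and in the other 4 libraries none. Over the whole list the sums were 1509 to 2007 normalized counts in Col6a1+ and 1041 to 1415 in Col6a1- libraries. Without Esam and Eng, both called higher, the sums were 235 to 726 and 955 to 1230. That choice was made after their values were seen and kept Robo4, called lower, so the reduced sums are no independent measure. The 4 lymphatic endothelial markers summed to 20 to 150 in Col6a1+ and 1189 to 2685 in Col6a1- libraries. Most of each sum was Prox1, called lower, with 15, 139 and 93 against 2154, 1100 and 2644. Lyve1 (0, 3 and 27 against 22, 18 and 26) and Ccl21a (5, 8 and 15 against 102, 53 and 6) overlapped. Mmrn1 was lower in each Col6a1+ library without a call (0, 0 and 5 against 9, 18 and 9). The part of lymphatic cells in the value of Flt4 was not tested.

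Markers of mural cells, the cells that wrap vessels, differed in the same direction as Tie1. Each of the 11 pericyte markers passed as higher in Col6a1+ CAFs. Their log2 fold changes had a median of 5.72, and their sums were 42937 to 92313 normalized counts in Col6a1+ and 1176 to 2207 in Col6a1- libraries. Rgs5 had 42173, 29648 and 31282 against 509, 700 and 297 (log2 fold change 6.16, SE 0.35, adjusted p 1.01e-04 in limma). Pdgfrb had 2084, 1329 and 1612 against 115, 89 and 58 (log2 fold change 4.28, SE 0.34, adjusted p 3.36e-04 in limma). With the replicate block over all genes both were at 0.0612, the lowest value any gene reached in that fit. Of the smooth muscle markers 6 of 7 and of the fibroblast markers 4 of 8 were called higher, with sums of 11539 to 23961 against 470 to 2258 and of 38207 to 43043 against 7268 to 14791. The 12 immune markers summed to 68 to 121 against 348 to 685, with 1 called lower, and no glial or erythroid marker was called (glial sums 50 to 73 against 19 to 52, erythroid sums 68 to 946 against 149 to 312). The part of these other cell types in the differences of Tie1, Flt1, Angpt2, Angpt4 and Pgf was not tested.

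**Figure D3:**
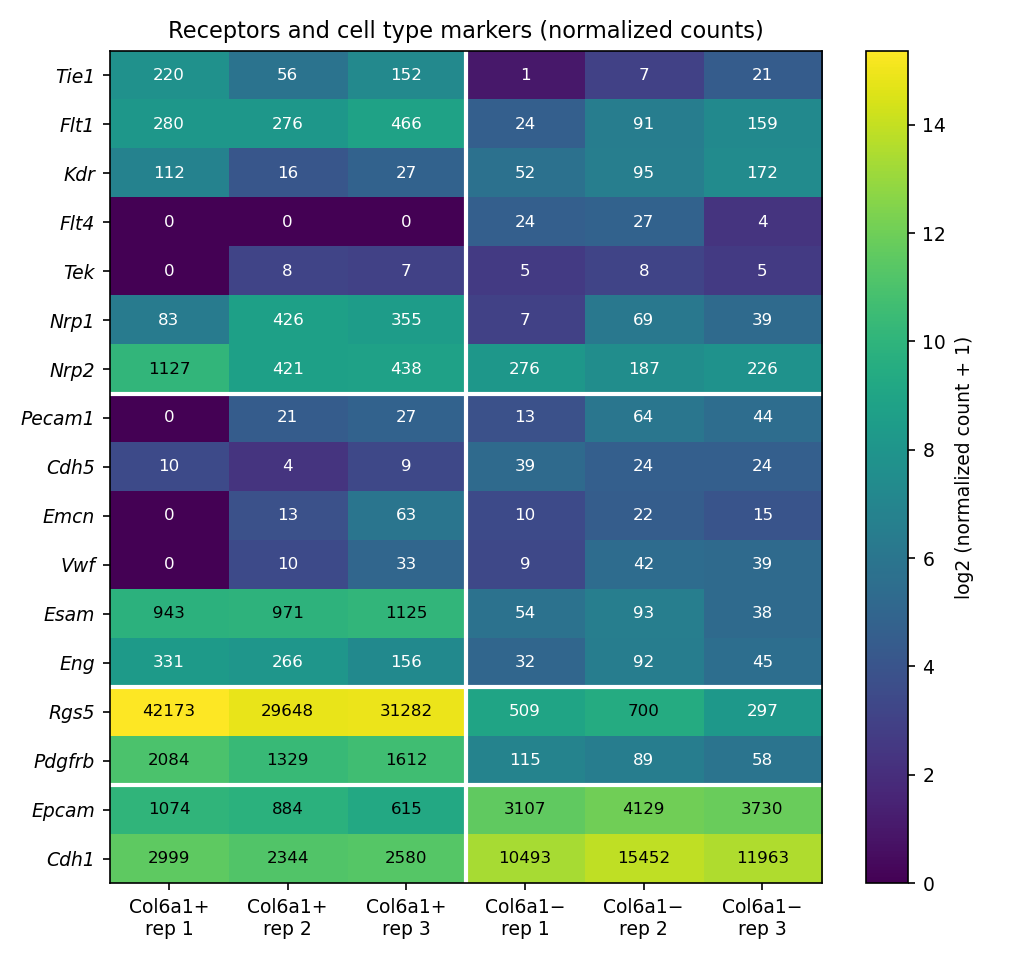
Heat map of the log2 of the normalized count plus 1 (colour scale, labelled by the normalized counts) for receptors of the pathway and markers of endothelial cells, pericytes and epithelium in the 6 libraries, 3 Col6a1+ on the left and 3 Col6a1- on the right; Emcn, Vwf, Epcam and Cdh1 were picked for display after their values were seen. Tie1, Flt1, Esam, Eng and the pericyte genes are higher in each library on the left than in any on the right. Pecam1 and Cdh5 are at 0 to 27 normalized counts on the left and 13 to 64 on the right. Emcn (0 to 63 and 10 to 22) and Vwf (0 to 33 and 9 to 42) overlap.

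The genes with the pattern most like that of Tie1, by Euclidean distance between log2 values centred on each gene's mean over the 6 libraries, were AW011738, Itgal and Ank2, out of 13515 genes averaging 10 or more normalized counts. AW011738, a gene without a known role, was at a distance of 1.02 with 74, 23 and 35 normalized counts in Col6a1+ and 0, 3 and 5 in Col6a1- libraries. Itgal, an integrin subunit of leukocytes, was at 1.07 with 60, 10 and 56 against 0, 1 and 6. Ank2, an adaptor of the membrane skeleton, was at 1.32 with 161, 45 and 57 against 1, 7 and 9. All of these share with Tie1 a lowest Col6a1+ value in replicate 2 and a lowest Col6a1- value in replicate 1. Their choice by distance over the same libraries favours such a shared order.

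**Figure D4:**
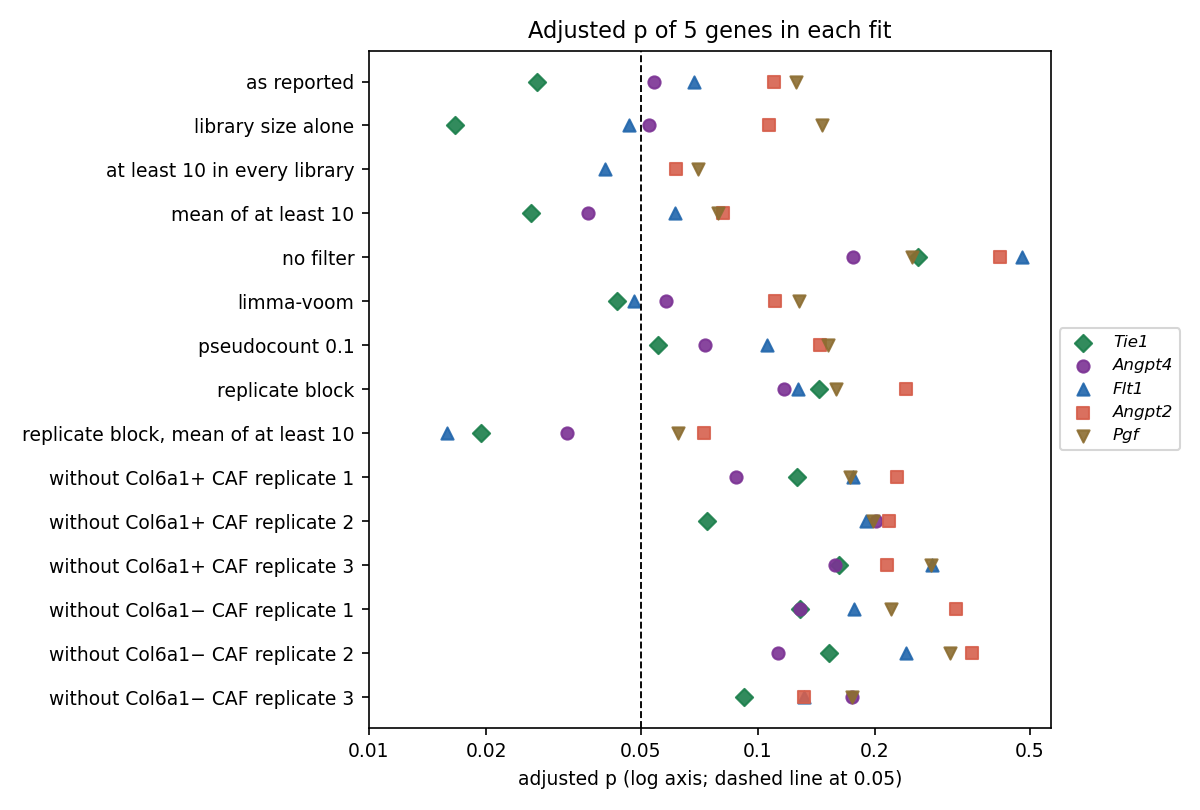
Adjusted p (horizontal log axis, dashed line at 0.05) of the 5 members whose libraries did not overlap, in the reported fit and in each alternative fit; a gene has no point where a filter left it out. Tie1 is left of the line as reported (0.0270) and right of it with the replicate block over all genes (0.144) and whichever library was left out, while Pgf and Angpt2 are right of it in every fit shown.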

How the data were processed

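Libraries of 3′ mRNA (QuantSeq, Ion Proton) from 3 Col6a1+ and 3 Col6a1- CAF samples were grouped by their labels. The authors mapped reads to mm10 with TopHat2 and Bowtie2, and used GenomicRanges and DESeq through metaseqr for counts and differential expression. They deposited the log2 of the normalized count plus 1 for 49548 genes. These are whole normalized counts in 100% of values (tolerance 1e-06), not raw counts, so no count model was used. The authors' p-values and fold changes and 6 further columns of per-sample values were not used. limma 3.58.1 (R 4.3.3, trend, 6.48 prior and 4 residual degrees of freedom) used the 26402 genes whose summed normalized counts reached 1, and was tested on simulated data. Each library's sum of normalized counts lay between 3039152 and 3425249, and a gene at 0 allows up to 3 raw counts, for counting error only. In normalized counts that limit depends on the scaling of each library, which was not known.

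Replicates are pools of tumors, and p-values measure the spread between these samples. Over 13515 genes, deviations from the group means correlated at 0.245, 0.125 and 0.144 between libraries of the same number, and from -0.245 to 0.150 between others. The study gives a total of 3 samples for sequencing, each a pool of tumors, so both subsets may have been sorted from the same pools. The numbers were read as pairs for this reason, but the labels do not state a pairing. The pairing is uncertain, since 0.150 between different numbers exceeded 0.125 and 0.144 between the same numbers.

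Members and lists were chosen with earlier results of these data known. Named are all members, the main receptors and ligands outside them, called pathway genes, up to 3 called angiopoietin-like or hypoxia-induced genes per direction, Pecam1, Cdh5 and called endothelial markers, Rgs5, Pdgfrb, overlapping genes and the 3 genes most like a called member. Alternatives were library size alone, other filters, a pseudocount of 0.1, the replicate block, limma-voom, dropping 1 library at a time and an unadjusted criterion, and the block over genes averaging 10 or more was added after seeing the data. Ratios were compared by exact permutation (SciPy 1.17.1, Python 3.11.15, NumPy 2.4.6, pandas 2.3.3), and plots drawn with Matplotlib 3.10.9. Gene positions are from the deposited table, transcripts from GENCODE and promoters from RefSeq.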

Additional observations from a re-analysis of the deposited data

How the results depend on the processing

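Of the members, 1 was called higher as reported, and the number was 2 with library size alone, with a mean of at least 10 and with limma-voom, 0 without a filter, with a pseudocount of 0.1 and with the replicate block, 3 with the block and a mean of at least 10, and 5 by the unadjusted criterion, while leaving out a library gave 0 to 0. When each library had to reach 10 normalized counts, which removes Tie1, Angpt4 and Angpt1, 1 member was called, Flt1 (adjusted p 0.0405 in limma), and the members' median was 0.46, against 0.95 to 1.22 when a library was left out. Calls over all genes moved as well. As reported 703 of 26402 genes were higher, with library size alone 716, with limma-voom 771 and with a pseudocount of 0.1 561. Without a filter 21 of 49548 were higher, with a mean of at least 10 815 of 13515, and with 10 in every library 696 of 9473. Leaving out a library gave 11 to 453 genes. The replicate block called 0 genes of the whole table, with a smallest adjusted p of 0.0612 in limma, beside 1851 higher and 2567 lower at an unadjusted p under 0.05, including 5 members, all higher. No member was called lower under any of these settings.

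Other pathway genes called higher numbered 1 with library size alone and 2 with the block and a mean of at least 10 and by the unadjusted criterion. Those called lower numbered 2 with library size alone, 0 without a filter and with the block, 3 with limma-voom and by the unadjusted criterion, and 0 to 1 without a library. Hypoxia-induced genes called higher fell to 0 without a filter, with the block and without any library (0 to 0), and 1 was lower with the block and a mean of at least 10 and by the unadjusted criterion. Cell type markers called higher, 23 as reported, numbered 2 without a filter, 0 with the block and 4 to 18 without a library. Those called lower, 12 as reported, numbered 0 without a filter and with the block, 7 with a pseudocount of 0.1, 25 by the unadjusted criterion and 0 to 8 without a library.

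Leaving out Col6a1+ replicate 1 turned the difference in the log2 ratio of Angpt2 to Angpt1 to -1.18 (range over libraries left out -1.18 to 1.86), of Angpt4 to Angpt1 to -0.24 (-0.24 to 2.14) and of Vegfb to Vegfa to 0.026 (-0.95 to 0.026), and the log2 fold changes of Vegfd to 0.076 (range -0.72 to 0.076), of Tek to 0.31 (-1.28 to 0.31) and of Ptprb to 1.47 (-1.05 to 1.47). Vegfb was at -0.27 without Col6a1+ replicate 3, -0.07 without Col6a1- replicate 2 and -0.12 without Col6a1- replicate 3 (range -0.27 to 0.44), Angpt1 at -0.11 without Col6a1+ replicate 2 (range -0.11 to 2.49), and Ptprb at 0.45 and 0.50 without Col6a1- replicates 2 and 3. The cause of these changes was not tested, except that fewer samples or genes entered the fit where a library or filter was changed.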
